A study of Danio rerio with 40 samples.

Results

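Collagens are the main structural proteins of the extracellular matrix. Chains with repeated glycine residues wind into a rod-shaped helix, which is secreted, trimmed and cross-linked into fibrils, sheets or filaments. In the brain most of this matrix lies in the meninges, the covering membranes, and in the basement membranes around vessels, whereas bone, cartilage and skin hold far more of it. The genes followed here were those whose symbol in the deposited annotation begins with col, a type number, the letter a and a chain number. They numbered 55 of the 32520 genes in the count tables and belonged to 22 collagen types, and 2 symbols, col6a3 and col19a1, each stood for 2 Ensembl identifiers. Of the 55 genes, 37 passed the filter on low counts and were tested, and 18 did not.

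The whole brain of 40 AB wild type zebrafish about a year old was sequenced as messenger RNA with a poly-A tail. Each brain was one library, from 20 females and 20 males, and per the labels each sex held 10 fish under 60% GA (Gum Arabic making up 60% of the dry feed) and 10 Control fish, for 2 weeks. The fish were kept in tanks of mixed sex, and the p-values measure the spread between fish. The columns of the count tables carry a fish number and no diet, so the diet of a fish is not analysed here, and the sex of a fish is that of the table its column stands in. Fish are therefore called by sex and by the start of the column name, as in male fish i128.

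Between about 9392140 and 19131400 reads per fish were assigned to genes. Levels are given in CPM, the count of a gene as a share of the library total, put on one common scale for all libraries with TMM factors (trimmed mean of M-values). A count of 3 reads, the limit that a count of 0 allows, equals 0.319 CPM in the shallowest library and 0.157 CPM in the deepest, and it covers counting error only. The summed level of 7 brain markers was 10372 to 29299 CPM in females and 11068 to 29973 CPM in males, so every library held the labelled tissue by these markers. In 6 libraries, those of female fish i7, i94 and i119 and male fish i28, i81 and i99, between 15540 and 17146 genes had a read, against 18656 to 22741 genes in the other 34 libraries. These 6 libraries are pointed out beside several of the results that rest on them, and elsewhere the fish is given by its number alone. The column names place 37 fish on one flow cell and 3 fish (female fish i98, male fish i28 and i65) on another.

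The fibrillar collagens form the banded fibrils of skin, bone, tendon and cartilage. Type I, built in zebrafish from col1a1a, col1a1b and col1a2, is the main collagen of skin and bone. The gene col1a1a (ENSDARG00000012405) had a lowest, median and highest level of 1.61, 4.49 and 23.7 CPM in females, against 0.911, 4.84 and 1080 CPM in males. The gene col1a1b (ENSDARG00000035809) had 4.16, 9.00 and 33.99 CPM in females, against 3.26, 8.10 and 1847 CPM in males. The gene col1a2 (ENSDARG00000020007) had 1.94, 6.32 and 22.9 CPM in females, against 0, 6.07 and 1436 CPM in males. For all 3 genes the medians of the sexes lay close together, the ranges overlapped, and the highest male was male fish i128. Without that fish the highest male had 17.5 CPM of col1a1a, 24.4 CPM of col1a1b and 13.3 CPM of col1a2. The single value of 0 for col1a2 was that of male fish i28, one of the 6 libraries with few genes, whose other type I chains were not at 0.

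**Figure D1:**
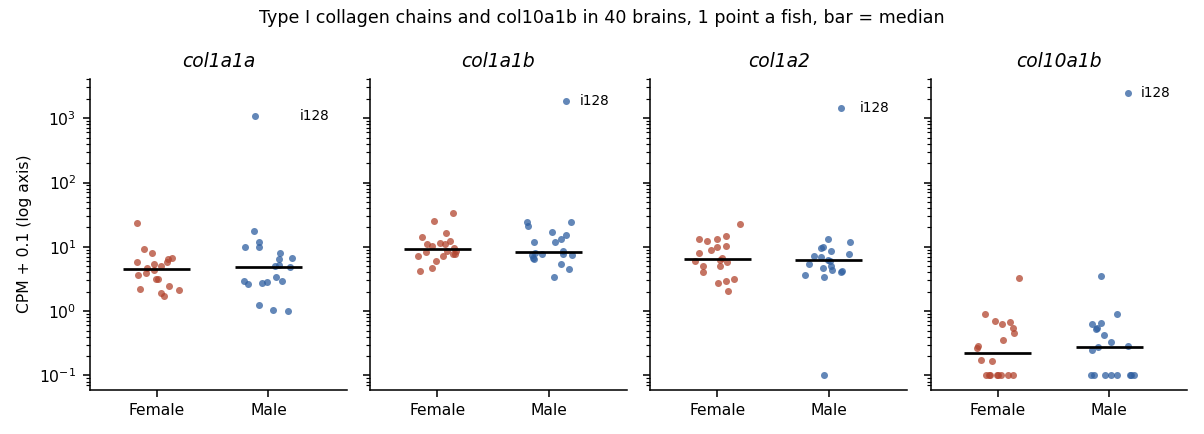
Levels of col1a1a, col1a1b, col1a2 and col10a1b in each fish (1 point a fish, 20 females left and 20 males right), as CPM + 0.1 on a log axis, with the median of each sex as a bar. Male fish i128 stands at 1080 to 2464 CPM in the 4 panels, and no other fish exceeds 33.99 CPM in any of them.

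Type X collagen forms short-chain networks and is known from the growing skeleton, where zebrafish col10a1a is also made by bone-forming cells. The gene col10a1b (ENSDARG00000101535) was the most one-sided of the 55 genes. It had 2464 CPM (30533 reads) in male fish i128, whereas the next fish, male fish i44, had 3.40 CPM and female fish i7 had 3.23 CPM. In females its lowest, median and highest level was 0, 0.121 and 3.23 CPM, against 0, 0.182 and 2464 CPM in males, and 16 of the 40 fish had no read. One fish thus held 99.4% of all reads of this gene in the 40 fish. At a median of 0.174 CPM over the 40 fish, col10a1b did not pass the filter on low counts and has no test there. Its duplicate col10a1a (ENSDARG00000054753) had 22.7 CPM in male fish i128. The next fish, male fish i28, a library with few genes, had 6.35 CPM. The lowest, median and highest level of col10a1a was 0, 1.19 and 4.63 CPM in females and 0, 1.36 and 22.7 CPM in males. Reads shared between the a and b copies of a gene were divided between them by the authors' estimate, so the split within such a pair is uncertain.

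Male fish i128 was the fish with the most collagen genes at a peak. A peak is a level of at least 3 times that of the median fish for the same gene, with 0.5 CPM added to both. Male fish i128 had a peak in 12 of the 55 genes, followed by male fish i81 with 8 and female fish i7 with 7. The median was 1 peak in females, with a highest of 7, and 1 peak in males, and 16 of the 40 fish had none. Of the 37 tested collagen genes, 10 (27.03%) were at a peak in male fish i128, whereas 4.83% of the 16875 tested genes were. Among those 10, col5a2b and col9a1b did not pass the filter when male fish i128 was left out, so that fish helped to admit them. In male fish i81, 4 tested collagen genes (10.8%) were at a peak against 4.04% of all tested genes, and in female fish i7, 3 (8.11%) against 6.13%. These shares describe single fish picked for their number of collagen peaks and were not tested.

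**Figure D2:**
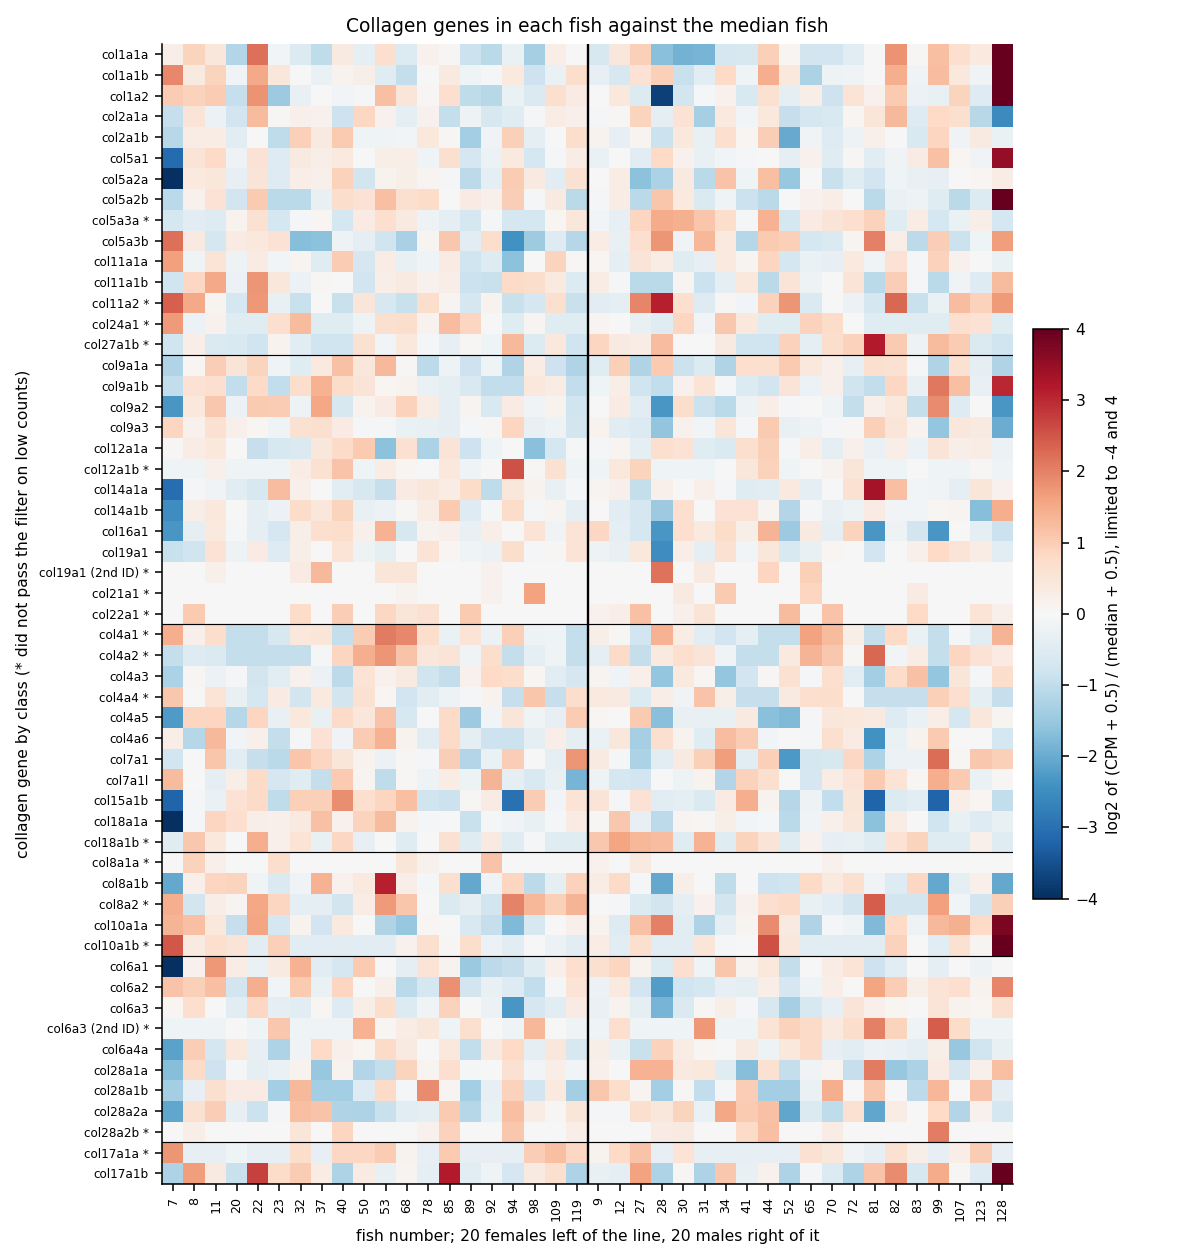
Each row is one of the 55 collagen genes, ordered by class and type, and each column a fish, with 20 females left and 20 males right of the line. Colour gives the log2 ratio of (CPM + 0.5) to that of the median fish, limited to -4 and 4, and an asterisk marks the 18 genes that did not pass the filter. Male fish i128 is red in types I, V and X, and the blue cells of female fish i7 mark genes with few or no reads.

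In male fish i128 the peaks lay in 5 of the 6 classes of collagen. The type I chains stood at 204 to 215 times the median fish, and at 45.6 (col1a1a), 54.3 (col1a1b) and 62.8 (col1a2) times the next fish. Type V collagen, which sits inside type I fibrils and sets their width, followed in 3 chains. The gene col5a1 had 108 CPM in male fish i128 against 9.00 CPM in the median fish, and col5a2b had 24.8 CPM against 0.566 CPM. The gene col5a3b had 8.07 CPM there against 2.197 CPM, and 2 other fish had more. The chain col5a2a of the same type did not follow, at 15.4 CPM in male fish i128 against a median of 12.5 CPM. The gene col17a1b, whose human counterpart spans the membrane of basal skin cells in hemidesmosomes, had 25.02 CPM in male fish i128 and 10.1 CPM in the next, female fish i85. The fibril-associated col9a1b had 7.59 CPM against a median of 0.499 CPM, and col6a2 had 8.56 CPM against 1.85 CPM. In this fish col10a1b ranked first of all genes by its ratio to the median fish, col1a2 ranked 21, col1a1a 25 and col1a1b 27. The 55 collagen genes together had 7216 CPM in male fish i128, against 562 CPM in the second highest male and 319 CPM in the highest female.

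Most collagens of cartilage were not high in that fish. Cartilage fibrils are made of type II, IX and XI chains, and col2a1a and col9a2 had no read in male fish i128, against medians of 2.43 and 2.00 CPM. There col9a3 had 1.21 CPM against a median of 6.30 CPM, col11a1a had 3.31 CPM against 4.06 CPM, and col2a1b had 30.3 CPM against 36.7 CPM. One exception was col11a2, with 2.50 CPM against 0.427 CPM, a peak that 6 other fish shared. Another was the type IX gene col9a1b, whose 7.59 CPM against a median of 0.499 CPM was the highest of all fish. The type XI gene col11a1b was also raised, at 2.02 CPM against a median of 0.544 CPM. Its ratio of 2.41 was below the peak size, and female fish i22 had more (3.06 CPM).

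Markers of other tissues were read in the same libraries. The summed level of the 8 skin markers was 14975 CPM in male fish i128 and at most 1021 CPM in any other fish (male fish i82), and 7 of the 8 markers were highest in male fish i128. Among them krt5, a keratin of the outer skin, had 7654 CPM against a median of 14.1 CPM, and tp63, a transcription factor of basal skin cells, had 68.4 CPM against 3.88 CPM. The other marker, krtt1c19e, was near 0 in every library (at most 0.538 CPM). The 8 bone markers found by symbol, of 9 listed, summed to 107.3 CPM in male fish i128, against 1.94 to 27 CPM in females and at least 5.50 CPM in males. Of that sum, bglap, the bone matrix protein osteocalcin, gave 76.7 CPM against a median of 0.775 CPM, and runx2b, a regulator of bone-forming cells, had 8.07 CPM against a median of 0, and entpd5a was also highest there. The markers sp7, spp1, runx2a, panx3 and phex were not highest there. Still, 5 of the 8 bone markers were at a peak in male fish i128, beside 2002 of all 32520 genes in that fish. Among these was spp1, at 2.18 CPM (27 reads) against a median of 0.356 CPM. Another was runx2a, at 1.05 CPM (13 reads) against a median of 0. Both lay only just above the peak size of 3 times. The highest fish were female fish i119 for spp1 (2.59 CPM) and male fish i99 for runx2a (2.76 CPM), both libraries with few genes. The 13 cartilage markers summed to 64.2 CPM in male fish i128, with 36.5 to 117 CPM in females and 41.1 to 128.2 CPM in males, and 6 of them had no read there. The 11 meninges and fibroblast markers found summed to 77.2 CPM, rank 7 of 40 fish, with lum at 26.9 CPM against 0.908 CPM the only one at a peak. The 10 skeletal muscle markers summed to 17.2 CPM against a median of 21.6 CPM. The 9 vessel wall markers summed to 63.4 CPM, rank 38 of 40 fish, against a median of 103 CPM. Blood, lens and retina markers summed to 967, 0.888 and 1.78 CPM, against medians of 1489, 1.17 and 5.47 CPM. The brain markers of male fish i128 summed to 15907 CPM, close to the median of 15256 CPM. Of this sum mbpa gave 9059 CPM. By the ratio to the median fish, mbpa (1.07) and snap25b (1.48) were above 1 there. Below 1 were snap25a (0.838), plp1b (0.710), elavl3 (0.664), gfap (0.629) and fabp7a (0.623). The part of skin or bone RNA in the collagen levels of this fish was not tested, and in whole brains more cells of a type and more RNA per cell cannot be told apart.

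**Figure D3:**
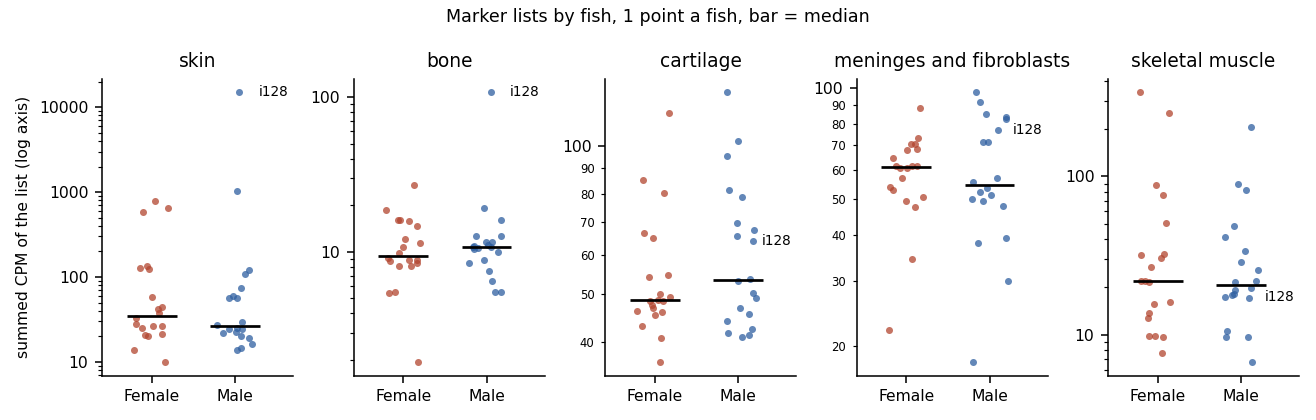
Summed CPM of 5 marker lists in each fish (1 point a fish, females left, males right, bar at the median) on log axes whose ranges differ between panels. Male fish i128 is the highest fish for skin (14975 CPM) and bone (107.3 CPM) and lies within the other fish for cartilage, meninges and fibroblasts, and skeletal muscle.

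The next highest fish for the summed type I chains were female fish i22, male fish i82 and female fish i7, at 72.1, 55.2 and 52.9 CPM. Female fish i22 had 23.7 CPM of col1a1a, 25.6 CPM of col1a1b, 22.9 CPM of col1a2 and 7.32 CPM of col17a1b. Male fish i82 had 17.5 CPM of col1a1a, 24.3 CPM of col1a1b, 13.3 CPM of col1a2 and 3.87 CPM of col17a1b. The skin list stood at 657 CPM in female fish i22 and 1021 CPM in male fish i82 against a median of 28.9 CPM, but at 33.2 CPM in female fish i7. Female fish i8 and i85, at 783 and 586 CPM of the skin list, had lower type I sums of 32.3 and 26.3 CPM. Both sums still lay above that of the median fish. The skeletal muscle list was also high in both fish named first, at 250 CPM in female fish i22 and 206 CPM in male fish i82 against a median of 21.6 CPM.

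Whether the collagens differed between the sexes was asked with a quasi-likelihood test (edgeR) of 20 females against 20 males over all 16875 genes that passed the filter. No collagen gene passed an adjusted p of 0.05, and no gene at all did (0% of those tested). At an unadjusted p under 0.05, 5 of the 37 collagen genes stood against 376 of all tested genes (2.23%). All 5 were lower in females, a side that held 251 of the 376 genes (1.49% of those tested). The DESeq2 Wald test gave 0 genes at an adjusted p under 0.05 and 621 at an unadjusted p under 0.05 (2.23% of 27840), 3 of them collagen genes. With limma voom these were 0 and 365 (2.16% of 16875), 2 of them collagen genes. Of the 37 collagen genes 18 had a fitted value above and 19 below zero, with a median log2 fold change of -0.01, and over all tested genes the median was -0.003, with 50.9% below zero. Since no gene passed the adjusted threshold in these tests, they offer no check of the sex given to a fish.

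The chains of type I collagen ranked 1, 2 and 6 of all genes by p-value. The fitted log2 fold change, female over male, was -3.20 ± 0.73 (standard error, n = 20 per sex) for col1a1b, rank 1 (edgeR, p = 7.85e-05, adjusted p = 0.448). It was -3.46 ± 0.79 for col1a1a, rank 2 (p = 8.35e-05), and -3.27 ± 0.79 for col1a2, rank 6 (p = 1.59e-04), and the adjusted p of both was again 0.448. These values rested on 1 male, male fish i128. Without it 1 of 34 tested collagen genes had an unadjusted p under 0.05, against 1.59% of all 16787 tested genes, and 0 genes passed an adjusted p of 0.05. The log2 fold change without that fish was 0.02 ± 0.25 for col1a1b (edgeR, p = 0.931), -0.02 ± 0.33 for col1a1a (p = 0.946) and 0.35 ± 0.31 for col1a2 (p = 0.264). When any one of the other 39 fish was left out instead, the value of col1a1b stayed between -3.36 and -3.15, that of col1a1a between -3.74 and -3.41 and that of col1a2 between -3.42 and -3.21. With no filter on low counts col10a1b entered the test and was the only collagen gene called, at a log2 fold change of -8.46 (edgeR, adjusted p = 0.0410), among 13 called genes (0.0465% of 27947). At an unadjusted p under 0.05 that setting had 9 of 55 collagen genes, against 9.75% of all. Of these 9 genes only col8a1a was higher in females, at a log2 fold change of 2.08 (edgeR, p = 0.00958, adjusted p = 0.195). The gene col8a1a had no read in 31 fish and at most 0.599 CPM in any fish. Without male fish i128 that setting called 0 genes, with 2481 at an unadjusted p under 0.05.

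**Figure D4:**
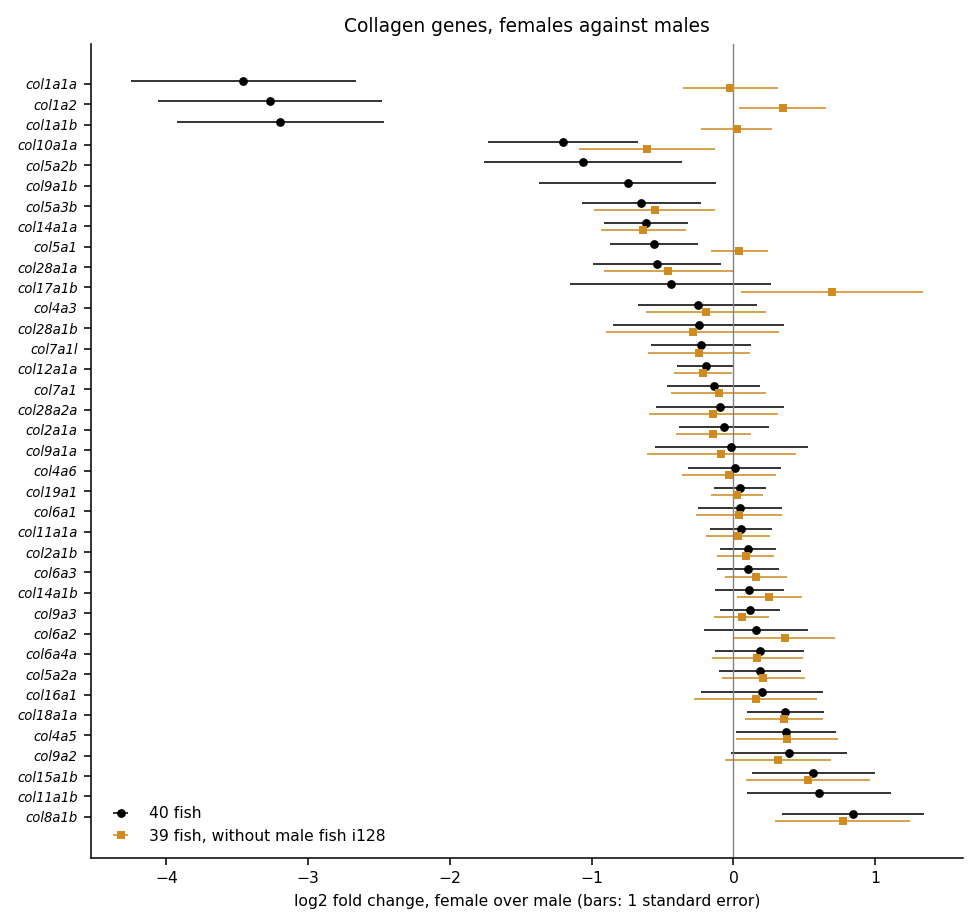
Log2 fold change, female over male, of the 37 tested collagen genes with 1 standard error, for all 40 fish (circles) and for the 39 fish without male fish i128 (squares, drawn for the 34 genes that still passed the filter). The type I chains stand at -3.46 to -3.20 with all fish and between -0.02 and 0.35 without male fish i128.

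Another 2 genes had an unadjusted p under 0.05. The log2 fold change of col10a1a was -1.20 ± 0.53 (edgeR, p = 0.0279, adjusted p = 1.00), and without male fish i128 it was -0.61 ± 0.48 (p = 0.213). Type XIV collagen, which binds the surface of fibrils and is made by fibroblasts, is encoded by col14a1a (ENSDARG00000005762) and col14a1b. The level of col14a1a was 3.96, 35.0 and 86.2 CPM (lowest, median, highest) in females, against 18.3, 37.9 and 367 CPM in males. The highest value belonged to male fish i81 and the lowest to female fish i7, both libraries with few genes. Its log2 fold change of -0.62 ± 0.30 (edgeR, p = 0.0431, adjusted p = 1.00) was -0.08 without the 6 libraries with few genes (p = 0.688) and -0.11 without male fish i81 (p = 0.588). The gene col14a1b had 0.626, 5.83 and 12.4 CPM in females, against 1.4, 5.55 and 16.5 CPM in males, where male fish i128 was highest.

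The remaining genes among the 10 with the smallest p did not pass any threshold. The basement membrane and vessel wall gene col8a1b had 0, 1.86 and 17.2 CPM in females, against 0, 1.53 and 3.15 CPM in males, a log2 fold change of 0.84 ± 0.50 (edgeR, p = 0.0986). Its highest value was that of female fish i53, and the next fish had 4.92 CPM. The type V gene col5a1 had 0.626, 10.7 and 15.9 CPM in females, against 6.34, 8.76 and 108 CPM in males, at -0.56 ± 0.31 (p = 0.0796), and without male fish i128 it stood at 0.04 ± 0.20. The gene col5a2b had 0, 0.785 and 1.93 CPM in females, against 0, 0.442 and 24.8 CPM in males, at -1.06 ± 0.70 (p = 0.135), and it did not pass the filter without male fish i128. The gene col5a3b had 0, 1.56 and 11.9 CPM in females, against 0.713, 2.79 and 10.5 CPM in males, at -0.65 ± 0.42 (p = 0.130), and its 2 highest fish, female fish i7 and male fish i81, are libraries with few genes. The gene col18a1a, whose product is known in mammals as the source of the vessel inhibitor endostatin, had 0, 10.7 and 23.8 CPM in females, against 2.70, 8.92 and 20.5 CPM in males, at 0.37 ± 0.27 (p = 0.181). The ranges of the sexes overlapped in each of these genes.

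The other tested fibrillar chains had overlapping ranges in the sexes. The type II gene col2a1b had 14.0, 37 and 75.9 CPM in females, against 8.64, 35.0 and 73.0 CPM in males, with no peak in any fish. Its duplicate col2a1a had 1.01, 2.43 and 6.501 CPM in females, against 0, 2.43 and 6.71 CPM in males, and the one fish without a read was male fish i128. The gene col5a2a had 0, 14.1 and 25.96 CPM in females, against 3.65, 11.0 and 29.6 CPM in males. The gene col11a1a had 0.971, 3.95 and 13.8 CPM in females, against 2.32, 4.15 and 8.16 CPM in males. Its highest value was that of female fish i7, a library with few genes. Not tested with the filter were col5a3a, col11a2, col24a1 and col27a1b. With no filter col27a1b was at a log2 fold change of -1.57 (edgeR, p = 0.0175, adjusted p = 0.286) and col5a3a at -1.23 (p = 0.0493, adjusted p = 0.508). There col11a2 was at -0.91 (edgeR, p = 0.183) and col24a1 at 0.43 (p = 0.561). In that setting 9.75% of all tested genes had an unadjusted p under 0.05 (edgeR). The type XXIV gene col24a1 and the type XXVII gene col27a1b had medians of 0.200 and 0.359 CPM over the 40 fish. Male fish i81, a library with few genes, had 7.30 CPM of col27a1b, against at most 1.62 CPM in any other fish.

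The fibril-associated collagens sit on the surface of fibrils, as type IX does in cartilage and type XII in tendon and skin. The gene col12a1a had 3.72, 12.4 and 27.3 CPM in females, against 8.37, 14.4 and 25.1 CPM in males. The gene col19a1 (the identifier ENSDARG00000076163), known in mammals from some interneurons as well as from basement membranes, had 5.21, 10.2 and 17.0 CPM in females, against 1.4, 10.1 and 18.0 CPM in males. No fish reached a peak in it. The gene col9a3 had 3.63, 6.30 and 11.9 CPM in females, against 1.21, 6.32 and 13.5 CPM in males, and its lowest fish was male fish i128. The gene col16a1 had 0, 2.29 and 6.09 CPM in females, against 0, 1.55 and 5.96 CPM in males, and the 4 fish without a read were all libraries with few genes. The genes col21a1 and col22a1 were hardly detected: 33 and 23 of the 40 fish had no read, and no fish exceeded 1.01 and 0.703 CPM.

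The basement membrane collagens make the sheets under epithelia and around vessels. Type IV forms the sheet itself. The gene col4a6 had 0.712, 2.00 and 6.49 CPM in females, against 0, 2.18 and 5.73 CPM in males, and col4a5 had 0, 2.30 and 4.76 CPM in females, against 0.211, 1.86 and 4.48 CPM in males. The chains col4a1 and col4a2, which make up most vessel basement membrane in vertebrates, did not pass the filter, at medians of 0.475 and 0.468 CPM, and 8 and 11 fish had no read. The gene col15a1b had 0, 5.74 and 16.2 CPM in females, against 0, 3.32 and 12.3 CPM in males (log2 fold change 0.56 ± 0.43, edgeR, p = 0.201), and the 3 fish without a read were libraries with few genes. Type VII anchors the epidermis to the dermis, and col7a1 had 1.67, 4.38 and 16.1 CPM in females, against 0.492, 4.37 and 22.6 CPM in males. Its highest fish were male fish i99 and female fish i119, both libraries with few genes, and male fish i128 had 8.96 CPM.

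The beaded filament collagens, type VI and its relative type XXVIII, surround cells of muscle, nerve and connective tissue. The gene col6a1 had 0, 7.98 and 26.4 CPM in females, against 3.65, 7.56 and 16.8 CPM in males, and its single 0 was female fish i7. The gene col6a2 had 0.602, 1.80 and 7.86 CPM in females, against 0, 1.98 and 8.56 CPM in males. The type XXVIII gene col28a2a had 0, 1.41 and 4.44 CPM in females, against 0, 1.77 and 5.65 CPM in males. The log2 fold changes of the 4 tested type VI genes lay between 0.05 and 0.19, each smaller than its standard error, and the smallest p among them was 0.559 (edgeR). The membrane-spanning col17a1b had 0, 0.847 and 10.1 CPM in females, against 0, 0.550 and 25.02 CPM in males, and 6 fish had a peak. Its log2 fold change was -0.44 ± 0.71 (edgeR, p = 0.536), and 0.70 ± 0.64 without male fish i128 (p = 0.284).

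Across the 55 genes, 30 had a median of at least 1 CPM, 5 of at least 10 CPM and 5 a median of 0, and 12 had reads in every fish. The type IV gene col4a3, whose human counterpart belongs to the basement membrane of the kidney filter, had 0.104, 0.818 and 2.00 CPM in females, against 0, 1.01 and 2.78 CPM in males. The type XI gene col11a1b had 0.0666, 0.709 and 3.06 CPM in females, against 0, 0.471 and 2.02 CPM in males, and like col5a2b and col9a1b it did not pass the filter without male fish i128. Leaving out other fish also moved the number of collagen genes that passed. The tested genes col6a4a, col7a1l, col9a1a and col28a1b had a p of 0.519 to 0.979 for the sexes (edgeR). The ranges of the sexes overlapped in these 6 genes. Of the 18 genes that were not tested, none had a median above 0.475 CPM. Apart from col10a1b their highest single fish had between 0.599 CPM (col8a1a) and 7.49 CPM (col11a2). The type IV gene col4a4, col5a3a, col12a1b, col18a1b and col28a2b had no read in 8, 9, 18, 13 and 27 fish. The second identifiers of col6a3 (ENSDARG00000095915) and col19a1 (ENSDARG00000096073) had no read in 19 and 30 fish.

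Collagen genes without a read gathered in the 6 libraries with few genes. These libraries were picked for having more than 1000 tested genes without a read. The tested genes include the collagen genes, so more zeros there follow in part from that choice. Of the 37 tested collagen genes, 4 to 16 had no read in these libraries, against 0 to 4 in the other 34. As shares these were 10.8% to 43.2% of the collagen genes, beside 10.3% to 17.8% of all tested genes in the same 6 libraries. In the other 34 libraries the shares were 0% to 10.8% of the collagen genes, beside 0.225% to 5.69% of all tested genes. Female fish i7 was lowest, with no read of col5a2a, col6a1, col15a1b or col18a1a and 6 reads of col5a1, although col11a1a, col5a3b and col1a1b were high in it. The same 6 libraries held 28 of the 70 collagen peaks. Over tested genes alone they held 13 of 40 collagen peaks (32.5%), a share near that of all tested genes, 4295 of 12871 peaks (33.4%). In male fish i81 the largest ratios to the median fish were 10.0 for col14a1a, 9.07 for col27a1b, 5.41 for col8a2, 4.86 for col4a2 and 4.27 for col28a1a. In female fish i7 they were 5.54 for col10a1b, 5.26 for col11a2, 4.59 for col5a3b, 3.81 for col1a1b and 3.42 for col17a1a, of which only col5a3b and col1a1b were tested genes. Female fish i7 also had the highest skeletal muscle sum, 340 CPM. The part of library quality in these values was not tested.

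**Figure D5:**
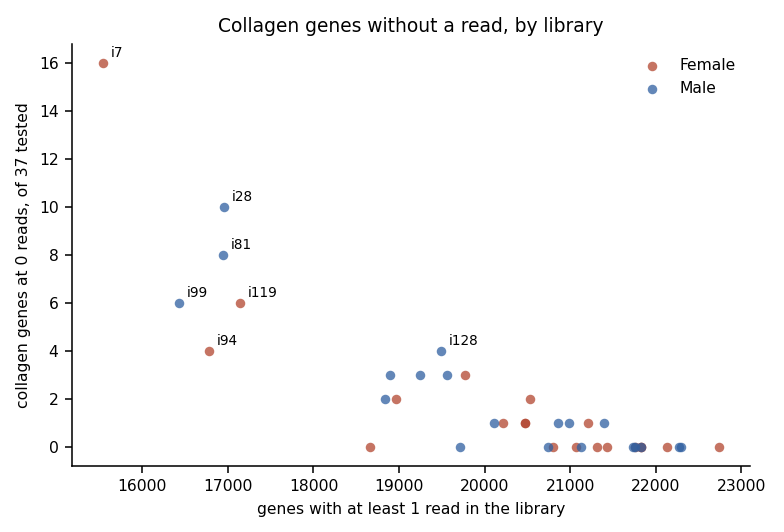
Each point is a library (20 females, 20 males), placed by the number of genes with at least 1 read and by how many of the 37 tested collagen genes had none. The 6 numbered libraries on the left have 4 to 16 collagen genes at 0, and male fish i128 has 4.

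Chains that share a collagen molecule or fibril were compared across fish as log2(CPM + 0.5), in the 8 of 14 listed pairs whose genes both passed the filter. Two-sided permutation tests with 100000 resamples were adjusted over the 8 pairs. The chains col1a1a and col1a2 of type I moved together over the 40 fish (Pearson r = 0.865, permutation p = 1e-05, the smallest these resamples can give, adjusted p = 8e-05, and Spearman rho = 0.642, adjusted p = 1.6e-04). Without the 2 fish farthest from the median of col1a1a, r was 0.570 and rho 0.582, and without male fish i128 alone r was 0.624. Without the 6 libraries with few genes r was 0.898 and rho 0.673. Within females rho was 0.789 (adjusted p = 3.2e-04) and within males 0.531 (adjusted p = 0.140). For col1a1b with col1a2, r was 0.735 (adjusted p = 0.0116) and rho 0.267 (adjusted p = 0.258), and r was 0.171 without male fish i128 alone (adjusted permutation p = 0.794) and 0.109 without the 2 fish farthest from the median, so the relation rested on male fish i128. The type V pair col5a1 and col5a2a gave r = 0.593 (adjusted p = 0.0111) and rho = 0.505 (adjusted p = 0.00384). Without the 6 libraries with few genes r was 0.356 (adjusted permutation p = 0.0804) and rho 0.572 (0.00256). Without the 2 farthest fish r was 0.353 (adjusted p = 0.118) and rho 0.457 (adjusted p = 0.0166), and rho was 0.701 within females and 0.373 within males. The other 5 pairs, of types II, IV, VI and IX, had rho between 0.01 and 0.15 and adjusted p of at least 0.635. Among them col9a2 with col9a3 had r = 0.228 over all fish (adjusted permutation p = 0.312), but 0.448 without the 6 libraries with few genes (0.0333), where rho was 0.140 (0.488).

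The enzymes and receptors that handle collagen were read from a list of 61 genes, of which 57 were found by symbol and 47 tested. None passed an adjusted p of 0.05 (edgeR, and DESeq2 called none either), 23 had a fitted value above and 24 below zero, and the median log2 fold change was -0.01. At an unadjusted p under 0.05 stood 3 of the 47, against 2.23% of all tested genes. The propeptide-cleaving bmp1b was at 0.45 ± 0.21 (edgeR, p = 0.0374), the cross-linking loxl1 at 0.50 ± 0.24 (p = 0.0379) and the lysyl hydroxylase plod3 at -0.32 ± 0.15 (p = 0.0409). Of the 8 genes listed under prolyl hydroxylases, p3h2 (p = 0.0752), crtap (p = 0.0958) and p4ha1b (p = 0.124) came closest. Among the 9 chaperone and export genes the smallest p belonged to serpinh1b (0.237), serpinh1a (0.346) and creb3l2 (0.365). The smallest for receptors were itga1 (0.349), itga11b (0.371) and ddr2a (0.511), and for breakdown timp2b (0.326), timp2a (0.333) and ctsk (0.436). Next to these stood plod1a (0.380) of the lysyl hydroxylases, loxa (0.410) and loxl3a (0.440) of the cross-linking enzymes, and pcolcea (0.118) and bmp1a (0.349) of propeptide cleavage. Leaving out male fish i128 moved the log2 fold change of pcolcea from -0.84 to 0.11 (edgeR, p = 0.807). That of ctsk moved from -0.34 to 0.48 (p = 0.156). In the same fit p3h2 had p = 0.0215, bmp1b 0.0465, plod3 0.0400 and loxl1 0.0555, all unadjusted. There 1.59% of all tested genes had an unadjusted p under 0.05, and 0 genes passed an adjusted p of 0.05.

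In male fish i128, 10 of the 57 genes found were at a peak, beside 2002 of all 32520 genes in that fish. Of the tested genes alone 4.83% were, and all of the 10 but the receptor gene itga2.2 were tested genes. The procollagen C-proteinase enhancer pcolcea had 34.9 CPM there and at most 6.95 CPM in any other fish, with a median of 1.5 CPM over the 40 fish. The gene ctsk, the collagen-cutting protease of bone-resorbing cells, had 36.97 CPM in male fish i128 against a median of 2.40 CPM. The membrane protease mmp14a had 19.1 CPM against 3.04 CPM, and the collagen receptor ddr2a 7.43 CPM against 1.30 CPM. The collagen chaperone serpinh1a had 9.69 CPM against 3.13 CPM, below the peak size at a ratio of 2.81, and serpinh1b had 1.05 CPM against 0.998 CPM.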

How the data were processed

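Reads were aligned to GRCz11 in the nf-core/rnaseq pipeline. The authors deposited 1 table per sex, with estimated counts per gene from salmon, which need not be whole. They were rounded here to whole numbers. The sample sheet names the libraries unstranded although the kit is directional, so reads of antisense genes may be mixed. The deposited comparison tables (fold changes and p-values) were not used, apart from the gene symbols of one of them. Genes were filtered with filterByExpr, scaled by TMM and tested with edgeR 4.0.16 (quasi-likelihood F test, sex alone, Benjamini-Hochberg over all tested genes, threshold 0.05). Standard errors were derived from the F statistic. DESeq2 1.42.0 and limma 3.58.1 were alternatives, with R 4.3.3, numpy 2.4.6 and scipy 1.17.1. The fit was tested on simulated data. The members and lists were chosen with earlier results of these data known. Genes named are those with the largest mean CPM of each type (not corrected for gene length), the 10 with the smallest p, the 10 tested with the largest peak, those of the listed pairs, the 5 largest peaks of 3 fish, and, per role of the pathway list, the 3 with the smallest p. Others named in single fish were chosen after their values were seen, as were the settings that leave out fish or use the flow cell.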

Additional observations from a re-analysis of the deposited data

How the results depend on the processing

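The count of collagen genes past an adjusted p of 0.05 was 0 under library totals, upper-quartile factors, another filter (CPM of at least 1 in at least 10 fish), robust estimation, limma voom, DESeq2, the flow cell as a term, the main flow cell alone, without the 6 libraries with few genes and with each of the 40 fish left out in turn (lowest and highest count 0, as for all genes). It was 1 with no filter on low counts, where 13 genes in all were called, and 0 again when male fish i128 was also left out. The log2 fold changes of type I changed sign in some settings: col1a1a was 0.0135 under limma voom, col1a1b was 0.0359 under DESeq2, 0.0831 under limma voom and 0.0218 without male fish i128 (0.0283 with no filter as well), and col1a2 was 0.36 under DESeq2 and 0.35 without male fish i128 (0.35 with no filter as well). DESeq2 replaces single outlying counts, and limma voom was run with sample quality weights, which give outlying fish less weight. The part of these steps in the sign changes was not tested. With each fish left out in turn the range was -3.36 to 0.0218 for col1a1b, -3.74 to -0.02 for col1a1a and -3.42 to 0.35 for col1a2. Male fish i128 kept between 9 and 16 collagen peaks under other peak sizes, added CPM and scaling, and no other fish had more in the same setting (at most 15 at 2 times the median). Within males the Spearman rho of col1a1a with col1a2 was 0.53 and of col5a1 with col5a2a 0.37, both no longer past the threshold, and without the 6 libraries with few genes the r of col5a1 with col5a2a no longer passed while that of col9a2 with col9a3 did. Pairs without a relation changed sign: col2a1a with col9a1a gave -0.0900 without the 2 farthest fish, -0.0762 in males and -0.0560 without male fish i128, col4a5 with col4a6 gave -0.0301 and col6a1 with col6a2 -0.13 in males. No paired analysis was possible because the count columns carry no replicate numbers of the labels. Low levels limit 18 of the 55 genes, and gene lengths were not used, so levels of different genes are not on one scale.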

Other observations

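The collagen genes were set beside the summed skin list over the 40 fish, a comparison chosen after the values of male fish i128 had been seen, for 7 genes on the log2(CPM + 0.5) scale with two-sided permutation tests adjusted over the 7. All of these genes but col7a1 were picked with a peak in male fish i128 already seen. The skin list was also highest in that fish, so the values over all 40 fish follow in part from this choice. Over the 40 fish, Pearson r was 0.781 and Spearman rho 0.566 for col1a1a (adjusted permutation p = 4.67e-05 and 6.3e-04). For col1a1b r was 0.758 and rho 0.584 (4.67e-05 and 6.3e-04). Without the 2 fish farthest from the median of the skin list r was 0.534 for col1a1a and 0.495 for col1a1b, and without male fish i128 alone it was 0.600 and 0.553 (adjusted permutation p = 2.8e-04 and 6.07e-04). The gene col17a1b gave r = 0.707 and rho = 0.398, and col10a1a r = 0.628 and rho = 0.458, with r = 0.521 and 0.448 without the 2 farthest fish, where the rho of col17a1b was 0.298 and no longer passed (adjusted permutation p = 0.0818). The gene col1a2 gave r = 0.650. Without male fish i128 alone its r was 0.322 and no longer passed (adjusted permutation p = 0.0579), while its rho was 0.370 (0.0277). Without the 2 farthest fish its r was 0.270 (adjusted permutation p = 0.118). The type V gene col5a1 gave r = 0.611, 0.395 without them, and 0.344 without male fish i128 alone, where it no longer passed (adjusted permutation p = 0.0579), whereas col7a1, the anchoring collagen of skin, gave r = 0.140 and rho = 0.093 (adjusted permutation p = 0.388 and 0.569). The median fish also had reads of some skin markers, at 14.1 CPM for krt5, 6.64 CPM for krt91 and 3.88 CPM for tp63. The medians of krt4 and cldni were 3.19 and 2.25 CPM. Those of epcam, krt17 and krtt1c19e were 0.245, 0 and 0 CPM. Male fish i128 had 2002 of all 32520 genes at 3 times the median or more, 117 at 50 times and 28 at 200 times, and 4 of those 28 were collagen genes.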
